A study of Citrus trifoliata and Citrus junos with 20 samples.

Results

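MicroRNAs (miRNAs) of roots of trifoliate orange (Poncirus trifoliata, Pt) were compared between seedlings cultured at pH 9.5 and seedlings cultured at pH 8.0. The comparison was chosen by its sample labels and covers 6 of the 18 small RNA libraries of the series, which has 20 samples in all. It holds all 100 miRNAs with deposited reads, 49 known and 51 predicted. Pt is the rootstock that the study describes as sensitive to alkaline conditions, and Citrus junos (Cj) is the tolerant one. Seedlings of both were grown for 8 weeks in hydroponics, at a pH of 6.5, of 8.0 or of 9.5. Here Pt at pH 9.5 (3 libraries) was set against Pt at pH 8.0 (3 libraries), so both sides of the comparison were alkaline. The normal condition of pH 6.5 was not compared and serves to give levels. Its libraries and those of Cj also entered the statistical fit. There they had a part in the low-count filter, the scaling and the estimate of the spread. Root tissue of 3 seedlings was pooled per library. Whether pools of one group shared a culture vessel is not stated, so p-values measure only the spread between pools. Reads are from whole pooled tissue, in which fewer cells of a type and less RNA per cell cannot be told apart. The tissue is root according to the study, and miRNA reads cannot check this, nor can they check the sensitivity of the rootstock.

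A miRNA is a short RNA cut from the stem of a hairpin-shaped precursor. In plants it pairs almost fully with its target transcripts, which are then cut or translated less. Several plant miRNA families follow nutrition. In Arabidopsis, miR397, miR398 and miR408 are held low when copper is plentiful and rise when it is scarce, and miR399 and miR827 rise when phosphate is scarce. Other families (miR156, miR160, miR166, miR171, miR396) act on transcription factors of growth and development.

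The sequences of the known miRNAs that moved are given first, with families as the authors of the study assigned them. Sequences are written 5′ to 3′ with bases 2 to 8, the seed, in capitals. The first set belongs to the copper-related families and to MIR477, all lower at pH 9.5 except csi-miR398, which is shown for comparison.
csi-miR397: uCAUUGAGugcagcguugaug
csi-miR408: aUGCACUGccucuucccuggc
csi-miR398: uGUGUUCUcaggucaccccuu
csi-miR473: aCUCUCCCucaagggcuucgc
csi-miR477b: cUCUCCCUcaagggcuucucu
csi-miR473 and csi-miR477b were both assigned to MIR477. Shifted by 1 base against each other they shared all but 1 of 20 letters, so their seeds differ although the molecules are nearly the same.

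The second set holds the phosphate-related miRNAs. The MIR399 members share 1 seed and differ near the middle and the 3′ end.
csi-miR399e: uGCCAAAGgagaauugcccug
csi-miR399d: uGCCAAAGgagaguugcccug
csi-miR399b: uGCCAAAGgagaguugcccua
csi-miR399a: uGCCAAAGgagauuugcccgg
csi-miR827: uUAGAUGAccaucaacaaaca
Counted from the 5′ end, csi-miR399e differs from csi-miR399d only by A13G.

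The third set holds members of families that act on transcription factors, with the predicted members (named csi-miRN and a number) among them. Their nearest relatives are shown beside them.
csi-miR156: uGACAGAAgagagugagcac
csi-miRN49: gCUCUCUGugcuucugucauca
csi-miR171a: uUGAGCCGcgccaauaucac
csi-miR171b: cGAGCCGAaucaauaucacuc
csi-miR479: uGUGAUAUugguucggcucauc
csi-miRN43: uGCCUGGCucccuguaugcuu
csi-miRN45: uGCCUGGCucccuguaugccg
csi-miRN40: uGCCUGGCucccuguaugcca
csi-miR396b: uUCCACAGcuuucuugaacug
csi-miR396c: uUCAAGAAaucugugggaag
csi-miRN32: aUUCAAGAaagcuguggaaaa
Among the MIR160 members the seed is shared and the last 2 bases set csi-miRN43 apart (U20C and U21G against csi-miRN45). Several of these are not the strand for which the family is known. The hairpin deposited for csi-miRN32 holds all 21 letters of csi-miR396b in its other arm, and csi-miR396c can pair with csi-miR396b at 17 bases. The other arm deposited for csi-miRN49 shares 17 of 20 compared letters with csi-miR156.
other arm of csi-miRN49: gugacagaagauagagagcgc
The sequence of csi-miR479 lies in the hairpin deposited for csi-miR171b, on the opposite arm, and can pair with csi-miR171a and csi-miR171b at 18 bases each.

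The last set holds called miRNAs that were predicted and have no assigned family, or, for csi-miRN34, the family MIR3627.
csi-miRN34: uUGUCGCCggagagauagcacc
csi-miRN23: cACGCGGCcaucucucauuga
csi-miRN47: aUUUUAAAacgugcggaugucugc
csi-miRN52: uGAGCUGUuuggcuauucucgc
The hairpins of predicted miRNAs are placed on the Citrus sinensis genome, of a release that the sources used here do not name, as windows around the precursor: csi-miRN32 at chr7:3041240-3041489 (minus strand), csi-miRN34 at chr6:19944457-19944706 (minus strand), csi-miRN23 at chr5:10687126-10687375 (plus strand), csi-miRN43 at chr6:12799913-12800162 (minus strand), csi-miRN49 at chr7:24974091-24974340 (minus strand) and csi-miRN47 at chrUn:51273814-51274063 (plus strand). csi-miRN52 is listed with 4 hairpins on the plus strand of chromosome 2, the first at chr2:8711310-8711559 and the last from 8738017 to 8738266. Gene annotation around these windows was not used here.

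Target sites show what the best known pairs look like in the Citrus sinensis reference transcripts, to which the study mapped its degradome reads. The letters are those of the reference, and transcripts of Pt itself may differ from them. Sites were read from the list of miRNA and target pairs of the Pt degradome. They are written 5′ to 3′ as RNA, with the bases opposite the seed in capitals.
csi-miR397 in Cs6g07410, laccase 7: caucaacgcugcaCUCAAUAa
csi-miR399e in Cs2g06030, ubiquitin-conjugating enzyme E2 24: uggggcaaaucucCUUUGGCa
csi-miRN43 in Cs7g25670, auxin response factor 10: aggcauacagggaGCCAGGCa
csi-miR171a in orange1.1t00199, scarecrow-like protein 6: gggauauuggcgCGGCUCAa
Target transcripts were not measured in the files used here.

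The libraries differed in depth. At pH 9.5 they held 664349, 711609 and 441607 reads of listed miRNAs, and at pH 8.0 77255, 690025 and 771522. Replicate 1 at pH 8.0 was thus far shallower than the others. Before scaling, 3 reads in it stood for 38.8 per 1000000 listed reads, against 3.89 to 6.79 in the other 5. Levels below are in CPM (reads scaled to a common library size per 1000000 listed reads). In CPM, 3 reads stood for 4.73 at pH 8.0 replicate 3 and for 9.18 at pH 9.5 replicate 3. The shallow library, replicate 1 at pH 8.0, also stood apart in composition. It correlated with the other pH 8.0 libraries at Pearson's r of 0.972 and 0.976 on the log scale across miRNAs, where all other replicate pairs of these groups had at least 0.991. A set of 8 predicted miRNAs, frequent in Cj and nearly absent from Pt, holds 7 sequences, since csi-miRN41 and csi-miRN42 list the same one with equal reads. With that one entered once, the set had 7 to 15 reads and at most 30.6 CPM in the pH 9.5 libraries, against 24 reads and 312 CPM in the shallow library and 9 and 16 reads in the other pH 8.0 libraries. In Cj these summed to between 4765 and 8599 CPM. Their part in the results below was not tested. Results are therefore given with all libraries and, where a call changed, also without this one. No replicate pair looked like 1 library deposited under 2 names.

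Of the 100 miRNAs, 96 had enough reads over the 18 libraries to be tested, and 82 of them also passed the same filter in the 6 libraries alone. Between pH 9.5 and pH 8.0, 17 of 96 (17.7%) were called by edgeR's quasi-likelihood test at an adjusted p under 0.05, of which 6 were higher (6.25% of the tested) and 11 lower (11.5%). The median log2 fold change over all 96 was -0.09. Without the shallow library 14 were called, 13 of them among the 17. Leaving out another library gave 11 calls without pH 8.0 replicate 2, 9 without pH 8.0 replicate 3 and 8 without pH 9.5 replicate 1. How reads were scaled moved the balance of directions. With DESeq2 size factors 11 were higher and 11 lower, with library sizes from the TPM totals 13 and 10, with TMM factors taken over known miRNAs alone 12 and 10, with identical sequences entered once 14 and 8, and with the reads listed under 2 names entered once, a setting chosen after seeing the data, 13 and 10. Entering identical sequences once moved the median of all tested miRNAs to 0.04. The calls gained in this way were all of higher level at pH 9.5, such as csi-miR159, csi-miR166a, csi-miR394 and csi-miR399b. In 31 of the 96 tested miRNAs (32.3%) the 3 libraries of one pH lay wholly above the 3 of the other in CPM, 17 higher at pH 9.5 (17.7%) and 14 lower (14.6%), and all 17 called miRNAs were among them. Across the 18 other settings and library omissions, csi-miR397, csi-miR399e, csi-miR408, csi-miR473, csi-miR477b and csi-miR479 kept their call in every one.

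**Figure D1:**
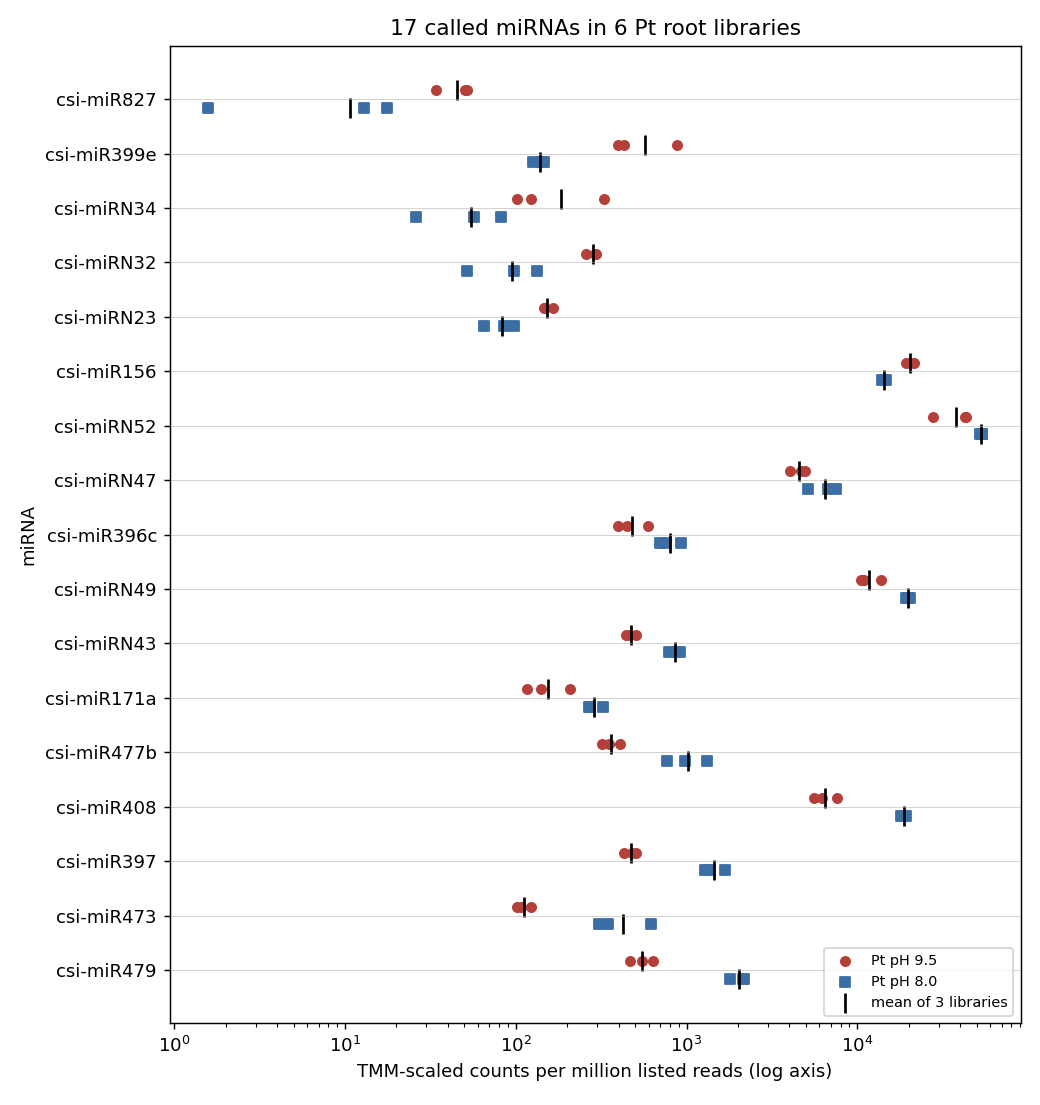
Level of each of the 17 called miRNAs in each Pt root library, in TMM-scaled CPM on a log axis (circles, pH 9.5; squares, pH 8.0; bars, mean of 3). The 2 groups do not overlap in any of them, and the spread within pH 8.0 is widest for csi-miR827, from 1.58 to 17.5 CPM.

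**Figure D2:**
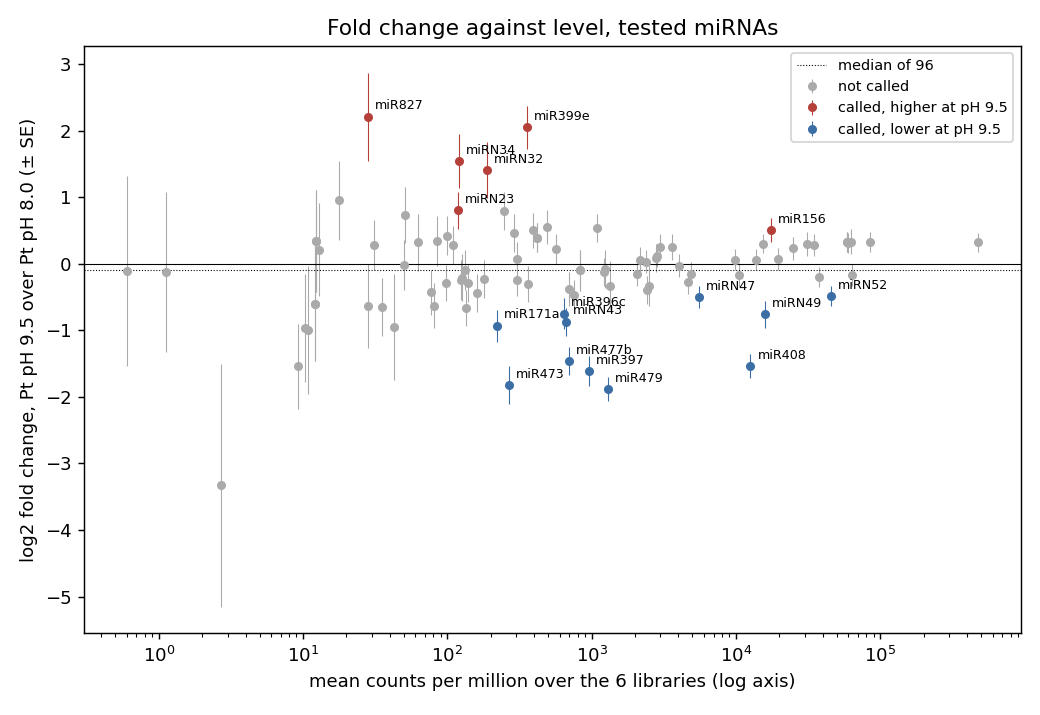
log2 fold change (pH 9.5 over pH 8.0, with its SE) of the tested miRNAs against the mean level over the 6 libraries on a log axis; csi-miRN27, with no read in these libraries, is not drawn. Called miRNAs lie between 28.1 CPM (csi-miR827) and 45532 CPM (csi-miRN52), and the large values at the left, such as -3.33 for csi-miRN04, have wide errors and no call.

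The copper-related miRNAs did not move together. csi-miR397, whose family cuts transcripts of laccases, copper enzymes of the cell wall, had 509, 429.7 and 480.4 CPM in the 3 libraries at pH 9.5, against 1364, 1278 and 1676 CPM at pH 8.0. It was 3.05-fold lower at pH 9.5 (log2 fold change -1.61 ± 0.22, SE, edgeR adjusted p = 2.05e-06). csi-miR408, whose family acts on plantacyanin and other copper proteins, is far more frequent. Its levels were 5576, 6174 and 7632 CPM in the 3 libraries at pH 9.5, against 18103, 19336 and 18876 CPM at pH 8.0, which is 2.91-fold lower (log2 fold change -1.54 ± 0.18, SE, edgeR adjusted p = 2.53e-07). In both, every library at pH 9.5 lay below every library at pH 8.0. csi-miR398, which acts on transcripts of Cu/Zn superoxide dismutases, did not share the fall. It had 36359, 31663 and 35310.3 CPM in the 3 libraries at pH 9.5, against 22583, 29522 and 32143 CPM at pH 8.0, and did not pass the test (log2 fold change 0.29 ± 0.18, SE, edgeR adjusted p = 0.284). Of the 3 copper-related miRNAs, 2 were thus lower and 0 higher, 66.7% called beside 17.7% over all tested, with a median log2 fold change of -1.54 beside -0.09. The contrast within the group needs no scaling, since it can be read inside each library. Reads of csi-miR397 per 100 of csi-miR398 numbered 1.40, 1.36 and 1.36 at pH 9.5, against 6.04, 4.33 and 5.21 at pH 8.0. Reads of csi-miR408 per 100 of csi-miR398 numbered 15.3, 19.5 and 21.6 at pH 9.5, against 80.2, 65.5 and 58.7 at pH 8.0. Per 100 reads of csi-miR408, csi-miR397 numbered 9.12, 6.96 and 6.30 at pH 9.5, against 7.53, 6.61 and 8.88 at pH 8.0, and here the groups overlapped. In Pt roots at pH 6.5, csi-miR397 had 1226 ± 179 and csi-miR408 16986 ± 2929.6 CPM (SD, n = 3), close to their levels at pH 8.0, while csi-miR398 had 16431 ± 3024 CPM. The mean levels of csi-miR398 therefore stood in the order of pH, although its libraries at pH 9.5 and pH 8.0 overlapped. The mean levels of the other 2 did not stand in that order.

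Both measured members of MIR477 fell. csi-miR473 had 102, 122 and 107 CPM in the 3 libraries at pH 9.5, against 623, 346 and 306 CPM at pH 8.0. It was 3.53-fold lower at pH 9.5 (log2 fold change -1.82 ± 0.29, SE, edgeR adjusted p = 1.92e-05). Its highest level at pH 8.0 was in the shallow library, and without that library the log2 fold change was -1.52 (edgeR adjusted p = 0.000132). csi-miR477b had 322, 352 and 410.1 CPM in the 3 libraries at pH 9.5, against 1325, 766 and 977 CPM at pH 8.0, 2.76-fold lower (log2 fold change -1.46 ± 0.21, SE, edgeR adjusted p = 5.4e-06), and again the shallow library was the highest. Per 100 reads of csi-miR477b, csi-miR473 numbered 31.8, 34.7 and 26.1 at pH 9.5, against 47.1, 45.1 and 31.3 at pH 8.0, and the groups overlapped. In Pt at pH 6.5 the means were 1249 ± 451 CPM for csi-miR473 and 1596 ± 173 CPM for csi-miR477b. The third member by assignment, the predicted csi-miRN27, had no reads in these 6 libraries, so 2 of 3 members (66.7%) were called, beside 17.7% over all tested. Summed over the family, MIR477 was lower at pH 9.5 (log2 fold change -1.71 ± 0.22, SE, edgeR adjusted p = 1.98e-06).

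Of the phosphate-related miRNAs, csi-miR399e and csi-miR827 rose. csi-miR399e had 885, 397 and 428 CPM in the 3 libraries at pH 9.5, against 143, 127 and 146 CPM at pH 8.0, 4.14-fold more at pH 9.5 (log2 fold change 2.05 ± 0.32, SE, edgeR adjusted p = 1.47e-05). Replicate 1 at pH 9.5 stood well above its replicates, and these in turn above every library at pH 8.0. MIR399 acts on the transcript of a ubiquitin-conjugating enzyme (PHO2, also named UBC24, in Arabidopsis) that limits phosphate uptake. The other tested members had smaller positive values that did not pass the test. csi-miR399b had 409.9, 216 and 288 CPM in the 3 libraries at pH 9.5, against 273, 168 and 140.2 CPM at pH 8.0 (log2 fold change 0.79 ± 0.29, SE, edgeR adjusted p = 0.0644). Without the shallow library this passed the test (log2 1.00, edgeR adjusted p = 0.0139). csi-miR399d had 819.7, 437 and 456 CPM in the 3 libraries at pH 9.5, against 506, 323 and 384 CPM at pH 8.0 (log2 fold change 0.55 ± 0.25, SE, edgeR adjusted p = 0.143). Per 100 reads of csi-miR399d, a single letter apart in sequence, csi-miR399e numbered 108, 90.9 and 94.0 at pH 9.5, against 28.2, 39.5 and 38.1 at pH 8.0, without overlap, while csi-miR399b averaged 54.2 at pH 9.5 and 47.4 at pH 8.0 and the groups overlapped. At pH 6.5 the ratio of csi-miR399e to csi-miR399d lay between 9.66 and 16.8 per 100. In Pt, csi-miR399e averaged 49.9 ± 9.03 CPM at pH 6.5, 139 ± 10.1 CPM at pH 8.0 and 570.2 ± 273 CPM at pH 9.5 (SD, n = 3 each).

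csi-miR399a was too rare to be tested, with 11, 2 and 6 reads at pH 9.5, against 0, 1 and 0 at pH 8.0. Per library size the ratio of the summed reads, 19 to 1, was 17.2, with an exact 95% interval from 2.73 to 714 that covers counting error only. csi-miR827, which in Arabidopsis acts on NLA, a ubiquitin ligase of phosphate transporters, had 27, 19 and 17 reads at pH 9.5, against 1, 10 and 1 at pH 8.0. In CPM this was 50.3, 34.2 and 52.0 at pH 9.5 and 13, 17.5 and 1.58 at pH 8.0, 4.64-fold higher at pH 9.5 (log2 fold change 2.21 ± 0.66, SE, edgeR adjusted p = 0.0198). This call rests on few reads. It was lost without pH 8.0 replicate 3 (log2 1.45, edgeR adjusted p = 0.159) or pH 9.5 replicate 1 (log2 2.19, edgeR adjusted p = 0.066), and without pH 8.0 replicate 2 the log2 value was 3.84 (edgeR adjusted p = 0.008). DESeq2 gave it an adjusted p of 0.0589. csi-miR395, which acts on sulfate assimilation, had 10, 6 and 4 reads at pH 9.5 and 2, 8 and 9 at pH 8.0 and was not tested. Of the 6 phosphate- and sulfate-related miRNAs 4 were tested, and of these 2 were higher (50%, beside 6.25% over all tested) and 0 lower, with a median log2 fold change of 1.42 beside -0.09. By family, the summed MIR399 reads were higher at pH 9.5 (log2 fold change 0.88 ± 0.22, SE, edgeR adjusted p = 0.00656), and this call was lost without pH 9.5 replicate 1 (log2 0.54, edgeR adjusted p = 0.0833).

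**Figure D3:**
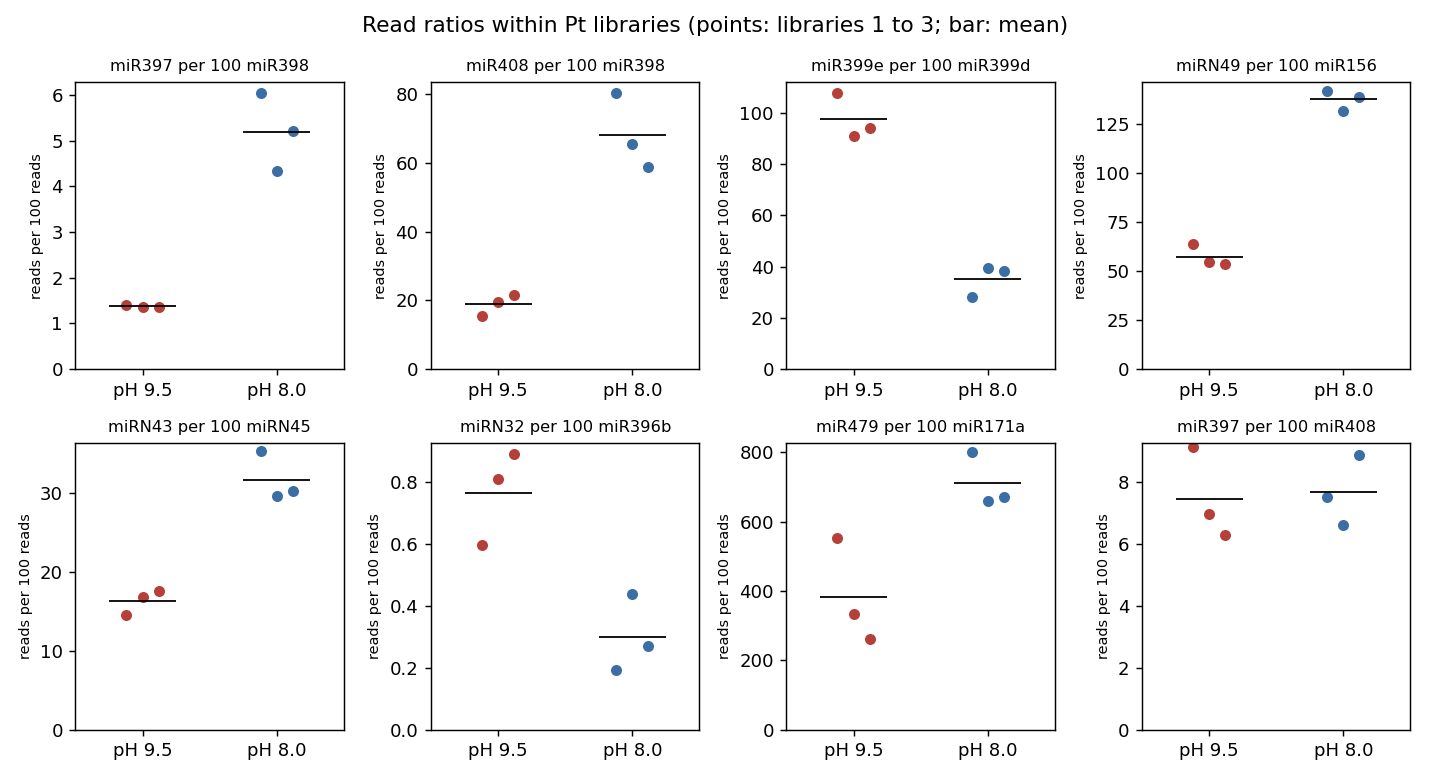
Reads of one miRNA per 100 reads of a relative in each Pt library (left, pH 9.5; right, pH 8.0; bars, means), on linear axes from 0. In 7 of the 8 panels the groups do not overlap, and csi-miR397 per 100 csi-miR408 is the panel in which they do. The panels were picked from 22 ratios, of which 11 overlapped.

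In the MIR171 family, whose main members act on scarecrow-like transcription factors of the meristem, csi-miR479 had the largest fall of all called miRNAs. It had 639, 469 and 548 CPM in the 3 libraries at pH 9.5, against 2182, 2128 and 1800.5 CPM at pH 8.0, 3.67-fold lower at pH 9.5 (log2 fold change -1.88 ± 0.18, SE, edgeR adjusted p = 7.69e-09). The level at pH 6.5 was 3787 ± 648 CPM, so its levels in Pt stood in the reverse order of pH. csi-miR171a, which has the sequence of the family's main strand, had 116, 140.2 and 208 CPM in the 3 libraries at pH 9.5, against 273, 323 and 268 CPM at pH 8.0 (log2 fold change -0.93 ± 0.24, SE, edgeR adjusted p = 0.00733). That call was lost without pH 8.0 replicate 2 (log2 -0.80, edgeR adjusted p = 0.0882) or pH 9.5 replicate 1 (log2 -0.69, edgeR adjusted p = 0.0715). csi-miR171b, from the other arm of the hairpin that holds csi-miR479, had only 3, 4 and 0 reads at pH 9.5 and 1, 7 and 11 at pH 8.0, and did not pass the test (log2 fold change -1.54 ± 0.64, SE, edgeR adjusted p = 0.106). Both arms of that hairpin thus had lower values at pH 9.5. Reads of csi-miR479 per 100 of csi-miR171a numbered 553, 335 and 263 at pH 9.5, against 800.0, 659 and 672 at pH 8.0, so the ratio was lower in every pH 9.5 library.

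MIR160, MIR167 and MIR393 belong to auxin signalling, where MIR160 acts on transcripts of the auxin response factors ARF10, ARF16 and ARF17 in Arabidopsis. Among 11 auxin-related miRNAs, 1 was lower and 0 higher, 9.09% beside 17.7% over all tested, with a median of 0.07. The called one was csi-miRN43, with 443, 464 and 508 CPM in the 3 libraries at pH 9.5, against 792, 859 and 912 CPM at pH 8.0 (log2 fold change -0.87 ± 0.21, SE, edgeR adjusted p = 0.00408), and it was lost without pH 8.0 replicate 3 (log2 -0.77, edgeR adjusted p = 0.0644) or pH 9.5 replicate 1 (log2 -0.75, edgeR adjusted p = 0.0685). The other 2 members of MIR160 stood apart from it. csi-miRN45, the most frequent, had 3039, 2769 and 2879.5 CPM in the 3 libraries at pH 9.5, against 2247, 2901 and 3023 CPM at pH 8.0 (log2 fold change 0.08 ± 0.21, SE, edgeR adjusted p = 0.824), and csi-miRN40 had 646, 538 and 664 CPM in the 3 libraries at pH 9.5, against 558, 754 and 1025 CPM at pH 8.0 (log2 fold change -0.38 ± 0.25, SE, edgeR adjusted p = 0.302). Per 100 reads of csi-miRN45, csi-miRN43 numbered 14.6, 16.8 and 17.6 at pH 9.5, against 35.3, 29.6 and 30.2 at pH 8.0, so that the form ending in uu had lower ratios in every pH 9.5 library, while the family sum did not pass the test (log2 fold change -0.27 ± 0.21, SE, edgeR adjusted p = 0.37). csi-miR393, which acts on the TIR1 and AFB auxin receptors, had 456, 448 and 453 CPM in the 3 libraries at pH 9.5, against 442, 289.7 and 282 CPM at pH 8.0 and was not called (log2 fold change 0.50 ± 0.26, SE, edgeR adjusted p = 0.215). The largest value in the list was that of csi-miRN28, from the opposite arm of a MIR167-type hairpin, with 9, 25 and 5 reads at pH 9.5 and 0, 10 and 8 at pH 8.0 (log2 fold change 0.95 ± 0.60, SE, edgeR adjusted p = 0.284).

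csi-miR156 and csi-miRN49, both assigned to MIR156, went opposite ways. MIR156 acts on SPL transcription factors, which time the passage from juvenile to adult growth. csi-miR156 had 21494, 19396 and 20319 CPM in the 3 libraries at pH 9.5, against 14025, 14519 and 14763 CPM at pH 8.0, 1.41-fold higher at pH 9.5 (log2 fold change 0.50 ± 0.18, SE, edgeR adjusted p = 0.049). It just passed the threshold and was lost without any single one of the 6 libraries, with edgeR adjusted p from 0.117 (without pH 9.5 replicate 3) to 0.14 (without pH 9.5 replicate 2), and by DESeq2 (adjusted p = 0.059). csi-miRN49 had 13704, 10571 and 10931 CPM in the 3 libraries at pH 9.5, against 19908, 19191 and 20459 CPM at pH 8.0, 1.69-fold lower (log2 fold change -0.76 ± 0.20, SE, edgeR adjusted p = 0.00733), and was lost without pH 9.5 replicate 3 (log2 -0.68, edgeR adjusted p = 0.0558). Set against each other, the reads of csi-miRN49 per 100 of csi-miR156 numbered 63.8, 54.5 and 53.8 at pH 9.5, against 142, 132 and 139 at pH 8.0. The predicted strand therefore had fewer reads than csi-miR156 in every pH 9.5 library and more in every pH 8.0 library. At pH 6.5 this ratio ranged from 77.9 to 162. Of the 5 SPL-related miRNAs, 1 was higher and 1 lower, 40% beside 17.7% over all tested (median 0.39).

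csi-miRN32 and csi-miR396c, both assigned to MIR396, also went opposite ways. The main strand of that family acts on transcripts of growth-regulating factors. csi-miRN32 had 291, 259 and 297 CPM in the 3 libraries at pH 9.5, against 51.9, 134 and 97.7 CPM at pH 8.0, 2.66-fold higher at pH 9.5 (log2 fold change 1.41 ± 0.42, SE, edgeR adjusted p = 0.0198), and was lost without pH 8.0 replicate 3 (log2 1.38, edgeR adjusted p = 0.0644). Its reads numbered 156, 144 and 97 at pH 9.5 and 4, 77 and 62 at pH 8.0. csi-miR396b, the other arm of that hairpin and by far the more frequent, had 48746, 31914 and 33299.9 CPM in the 3 libraries at pH 9.5, against 26751, 30763 and 36263 CPM at pH 8.0 (log2 fold change 0.28 ± 0.17, SE, edgeR adjusted p = 0.279). Per 100 reads of csi-miR396b, csi-miRN32 numbered 0.596, 0.811 and 0.891 at pH 9.5, against 0.194, 0.437 and 0.269 at pH 8.0. csi-miR396c, which has 17 of 20 compared letters in common with csi-miRN32, moved the other way, with 395, 449 and 597 CPM in the 3 libraries at pH 9.5, against 701, 934 and 759 CPM at pH 8.0 (log2 fold change -0.75 ± 0.23, SE, edgeR adjusted p = 0.0198). Its call was lost without pH 8.0 replicate 2 (log2 -0.59, edgeR adjusted p = 0.148), pH 8.0 replicate 3 (log2 -0.75, edgeR adjusted p = 0.0946), pH 9.5 replicate 1 (log2 -0.56, edgeR adjusted p = 0.194) or pH 9.5 replicate 2 (log2 -0.73, edgeR adjusted p = 0.0882), and also when low counts were kept (edgeR adjusted p = 0.0526) or identical sequences entered once (0.0551). For 8 other pairs of arms of 1 hairpin the ratio was computed as well. Of these only csi-miR166e-5p per 100 csi-miR166e-3p did not overlap between the pHs, with 13.9, 15.4 and 15.7 at pH 9.5, against 26.4, 19.7 and 19.2 at pH 8.0.

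The remaining called miRNAs have no well-known role. csi-miRN34, assigned to MIR3627, had 329.8, 101 and 122 CPM in the 3 libraries at pH 9.5, against 26, 82.0 and 56.7 CPM at pH 8.0, 2.92-fold higher at pH 9.5 (log2 fold change 1.54 ± 0.41, SE, edgeR adjusted p = 0.00849). The value rests in large part on pH 9.5 replicate 1, and it was lost without pH 8.0 replicate 3 (log2 1.45, edgeR adjusted p = 0.0644) or pH 9.5 replicate 1 (log2 0.86, edgeR adjusted p = 0.159). csi-miRN23, without a family, had 149, 146 and 165 CPM in the 3 libraries at pH 9.5, against 64.9, 97.7 and 85.1 CPM at pH 8.0 (log2 fold change 0.80 ± 0.28, SE, edgeR adjusted p = 0.049). Leaving out any single library took its call away, with edgeR adjusted p from 0.066 (without pH 9.5 replicate 1) to 0.131 (without pH 8.0 replicate 3), and DESeq2 gave 0.0575. csi-miRN52 is 22 nt long, and one of its listed targets, Cs1g19500, codes for suppressor of gene silencing 3, which takes part in making secondary small RNAs. It is among the most frequent predicted miRNAs, with 27621, 42755 and 43062 CPM in the 3 libraries at pH 9.5, against 52516, 53595 and 53643 CPM at pH 8.0 (log2 fold change -0.49 ± 0.15, SE, edgeR adjusted p = 0.0222). Its fall was small and was lost without pH 8.0 replicate 1 (log2 -0.46, edgeR adjusted p = 0.0934), pH 8.0 replicate 2 (log2 -0.45, edgeR adjusted p = 0.129), pH 8.0 replicate 3 (log2 -0.43, edgeR adjusted p = 0.131), pH 9.5 replicate 1 (log2 -0.24, edgeR adjusted p = 0.319) or pH 9.5 replicate 3 (log2 -0.53, edgeR adjusted p = 0.074). csi-miRN47, the only called one of the 22 predicted miRNAs of 24 nt, had 4013, 4694 and 4963 CPM in the 3 libraries at pH 9.5, against 7493, 6770.0 and 5171 CPM at pH 8.0 (log2 fold change -0.50 ± 0.17, SE, edgeR adjusted p = 0.0467), lost without pH 8.0 replicate 1 (log2 -0.36, edgeR adjusted p = 0.229), pH 8.0 replicate 2 (log2 -0.43, edgeR adjusted p = 0.147), pH 9.5 replicate 1 (log2 -0.34, edgeR adjusted p = 0.245), pH 9.5 replicate 2 (log2 -0.54, edgeR adjusted p = 0.0725) or pH 9.5 replicate 3 (log2 -0.51, edgeR adjusted p = 0.103). With 1 of 22 called (4.55%, beside 17.7% over all tested), the predicted 24-nt miRNAs had a median log2 fold change of -0.31. The most negative of them, csi-miRN04 (-3.33 ± 1.82, SE), had 0 reads at pH 9.5 and 3 at pH 8.0, so no fold is given. Some others also had hardly any Pt reads, such as csi-miRN27 with 0 and csi-miRN12 with 4 at pH 9.5 and 7 at pH 8.0. csi-miRN14 and csi-miRN15 list the same sequence. Without the shallow library, csi-miRN12 moved from -0.99 to 0.19 and csi-miRN44 from -0.95 to 0.35. Others, such as csi-miRN13 (-0.50) and csi-miRN47 (-0.36), stayed negative. The median without that library was not computed. csi-miRN22, another predicted 24-nt miRNA, had 85.7, 117 and 97.9 CPM in the 3 libraries at pH 9.5, against 208, 161 and 139 CPM at pH 8.0 (log2 fold change -0.67 ± 0.27, SE, edgeR adjusted p = 0.0978).

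Other groups had no or few calls. Of the 7 MIR482 members, which act on disease resistance genes and can start the making of phased small RNAs, 0 were called in either direction (log2 fold changes from -0.28 to 0.31, median 0.22). Under other settings edgeR called 2 of them higher. csi-miRN48 passed with TMM factors from known miRNAs (adjusted p = 0.0439), identical sequences once (0.0125) or reads under 2 names once (0.0374), and csi-miRN51 with TPM totals (edgeR adjusted p = 0.0201), identical sequences once (0.0208) or reads under 2 names once (0.046). Within it csi-miR482c had the lowest value, with 4494, 4273 and 3871 CPM in the 3 libraries at pH 9.5, against 5675, 5689.7 and 4045 CPM at pH 8.0. Likewise, 0 of the 8 miRNAs tied to the small RNA machinery (MIR162, MIR168, MIR403 and MIR1515, of which the first 3 act on Dicer-like and Argonaute transcripts in Arabidopsis) were called, with values from -0.33 to 0.32. The MIR168 entries, csi-miRN02, csi-miRN14 and csi-miRN15, are predicted sequences of 24 nt that belong to it by assignment only. csi-miRN14 and csi-miRN15 list the same sequence. Whether these entries act on Argonaute transcripts was not tested. Of csi-miR3951 to csi-miR3954, 3 were tested and 0 called. At an unadjusted p under 0.05 edgeR passed 2 of the MIR482, 0 of the small RNA machinery and 0 of the csi-miR3951 to csi-miR3954 list, against 29 of all 96, and DESeq2 called 0, 0 and 0 of them. Among 19 growth-related miRNAs, 1 was higher (csi-miRN32) and 3 lower (csi-miR171a, csi-miR479 and csi-miR396c), 21.1% beside 17.7%, with a median of 0.23. The 9 predicted miRNAs with neither a family nor a length of 24 nt had 1 higher (csi-miRN23) and 1 lower (csi-miRN52), 22.2% beside 17.7% over all tested. csi-miR394, whose Arabidopsis counterpart targets LCR, a transcript for an F-box protein, had 1585, 1102 and 1245 CPM in the 3 libraries at pH 9.5, against 662, 977 and 1013 CPM at pH 8.0. It did not pass the edgeR test (log2 fold change 0.54 ± 0.21, SE, edgeR adjusted p = 0.0749), while DESeq2 gave an adjusted p of 0.0282.

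The 5 most abundant miRNAs of these libraries were csi-miR159, csi-miR166c, csi-miR166d, csi-miRN50 and csi-miRN51. csi-miR159, of a family that targets GAMYB-type MYB transcripts, had 522072, 511985 and 548683 CPM in the 3 libraries at pH 9.5, against 346846, 450968 and 472584 CPM at pH 8.0 (log2 fold change 0.32 ± 0.14, SE, edgeR adjusted p = 0.121). Its share of the listed reads was higher at pH 9.5 than at pH 8.0 by 3.97 percentage points, without overlap of the libraries (exact permutation test, p = 0.1). The log2 fold changes were 0.32 ± 0.15 for csi-miR166c, -0.17 ± 0.16 for csi-miR166d, 0.33 ± 0.19 for csi-miRN50 and 0.31 ± 0.15 for csi-miRN51 (SE), and none of the 5 passed the test. Of the listed reads, the 5 most frequent miRNAs of each library held 63.4%, 64.3% and 64.5% at pH 9.5, against 57.1%, 59.8% and 62.0% at pH 8.0. Every pH 9.5 library lay above every pH 8.0 library, by 4.44 percentage points on average (exact permutation test, two-sided, p = 0.1, the smallest that 3 against 3 allow). However, csi-miR166a and csi-miR166e-3p list nearly the same reads. Both names were among these 5 in every pH 9.5 library and in pH 8.0 replicate 3, and neither was in the other pH 8.0 libraries. The contrast is thus partly one of reads entered under both names, and it was not computed with them entered once. The predicted miRNAs other than those of 24 nt held 10.8%, 11.1% and 10.7% at pH 9.5, against 14.6%, 12.8% and 11.7% at pH 8.0, again without overlap (exact permutation test, p = 0.1). For the known miRNAs the shares were 83.5%, 81.8% and 82.4% at pH 9.5, against 77.3%, 80.7% and 83.0% at pH 8.0 (exact permutation test, p = 0.3), and for the predicted 24-nt miRNAs 5.73%, 7.12% and 6.91% at pH 9.5, against 8.13%, 6.55% and 5.27% at pH 8.0 (exact permutation test, p = 1). The deposited TPM values rest on a total per library, which was derived here from counts and TPM. It ran from 125084 to 1034566 reads in these libraries. The study names it total mapped reads, yet gives far more reads per library as mapped to the genome. Which reads it holds is therefore not known here. Of this total, listed miRNAs made up 80.4%, 82.5% and 83.1% at pH 9.5, against 61.8%, 74.3% and 74.6% at pH 8.0. The choice of denominator therefore moved every share. With this total in place of the listed reads, the difference for the known miRNAs was 11.2 percentage points (exact permutation test, p = 0.1), against 2.21 with listed reads. For the other predicted miRNAs it was -0.152 (exact permutation test, p = 0.6), against -2.14, so that their separation was lost. The difference was 7.51 points for csi-miR159 and 10.6 for the 5 most frequent miRNAs, with the same reads again entered under both names. Without the shallow library the differences in listed reads were 0.685 points for the known and -1.36 for the other predicted miRNAs, and without pH 8.0 replicate 3 the known miRNAs differed by 3.55. The shallow library also had the lowest share of listed reads in the total behind TPM, and whether that share bears on the changes above was not tested.

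Counted by family, 11 of 59 tested families (18.6%) were called, 3 higher (5.08%) and 8 lower (13.6%), with a median log2 fold change of -0.27 in this fit. The higher ones were MIR399, MIR827_5 and MIR3627. The lower ones were MIR171_1, MIR171_2, MIR397, MIR408_2 and MIR477, and the single predicted miRNAs csi-miRN22, csi-miRN47 and csi-miRN52. MIR156 (log2 fold change -0.23 ± 0.15, SE, edgeR adjusted p = 0.325), MIR160 and MIR396 (log2 fold change 0.12 ± 0.15, SE, edgeR adjusted p = 0.554) were not among them. With DESeq2 size factors or TPM totals the calls were 6 higher and 6 lower each, and the family median was -0.07 and -0.09. Without pH 9.5 replicate 1, 6 families were called, 0 of them higher. Without the shallow library 8 were called, 2 higher and 6 lower. The lost ones were MIR827_5 (edgeR adjusted p = 0.0585), csi-miRN22 (edgeR adjusted p = 0.0939) and csi-miRN47 (edgeR adjusted p = 0.055). The call of csi-miRN22 was also lost under 8 settings and in 5 of the 6 omissions.

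To ask whether the step in pH differed between rootstocks, the same step was measured in Cj roots (Cj at pH 9.5 against Cj at pH 8.0, 3 libraries each) and the difference of the 2 log2 fold changes was tested. The difference passed in 6 of 96 miRNAs (6.25%), 2 with the higher value in Pt (2.08%) and 4 with the lower (4.17%). csi-miR399e was 2.05 in Pt and 0.17 in Cj on the log2 scale, a difference of 1.88 ± 0.45 (SE, edgeR adjusted p = 0.0178). Its levels in Cj were 118 ± 35.6 CPM at pH 9.5 and 105 ± 23.5 CPM at pH 8.0 (SD, n = 3). csi-miR479 fell in both, by 1.88 in Pt and by 0.93 in Cj, and the difference was -0.95 ± 0.24 (SE, edgeR adjusted p = 0.0178). The difference for csi-miRN23 was 1.67 ± 0.49 (SE, edgeR adjusted p = 0.0317), from 0.80 in Pt and -0.87 in Cj. csi-miR396c differed by -1.09 ± 0.32 (SE, edgeR adjusted p = 0.0317), with -0.75 in Pt and 0.34 in Cj. For csi-miRN47 it was -0.89 ± 0.24 (SE, edgeR adjusted p = 0.0294), with -0.50 in Pt and 0.38 in Cj. csi-miRN52 gave -0.85 ± 0.22 (SE, edgeR adjusted p = 0.0178), with -0.49 in Pt and 0.35 in Cj. These 4 had values of opposite sign in the 2 rootstocks, and those in Cj did not pass the test on their own. These calls were fragile. Leaving out 1 library left 0 calls without Pt pH 8.0 replicate 2, Pt pH 9.5 replicate 1, Cj pH 8.0 replicate 3 or Cj pH 9.5 replicate 2 (in that order, 13, 9, 12 and 8 at an unadjusted p under 0.05 by edgeR). It left 1 call without Pt pH 8.0 replicate 1, Pt pH 9.5 replicate 3, Cj pH 8.0 replicate 1 or Cj pH 9.5 replicate 3, 2 without Pt pH 9.5 replicate 2 or Cj pH 9.5 replicate 1, and 3 without Pt pH 8.0 replicate 3 or Cj pH 8.0 replicate 2. The sign of each difference was the same in every omission, and csi-miR399e kept its call in 8 of the 12. At an unadjusted p under 0.05, 13 of 96 passed. csi-miR397, csi-miR408 and csi-miR473, among the largest falls in Pt, were also lower at pH 9.5 in Cj. Their log2 fold changes there were -0.82, -0.83 and -0.93 (edgeR adjusted p = 0.00762, 0.00229 and 0.0104). csi-miR477b fell in Cj too (-0.93, edgeR adjusted p = 0.00229). The first 3 did not differ past the threshold between rootstocks, with differences of -0.79 ± 0.29, -0.71 ± 0.25 and -0.89 ± 0.37 (SE; edgeR adjusted p = 0.137, 0.104 and 0.198). Nor did csi-miR477b (-0.54 ± 0.28, SE, edgeR adjusted p = 0.391). This does not show that they responded to the same degree.

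**Figure D4:**
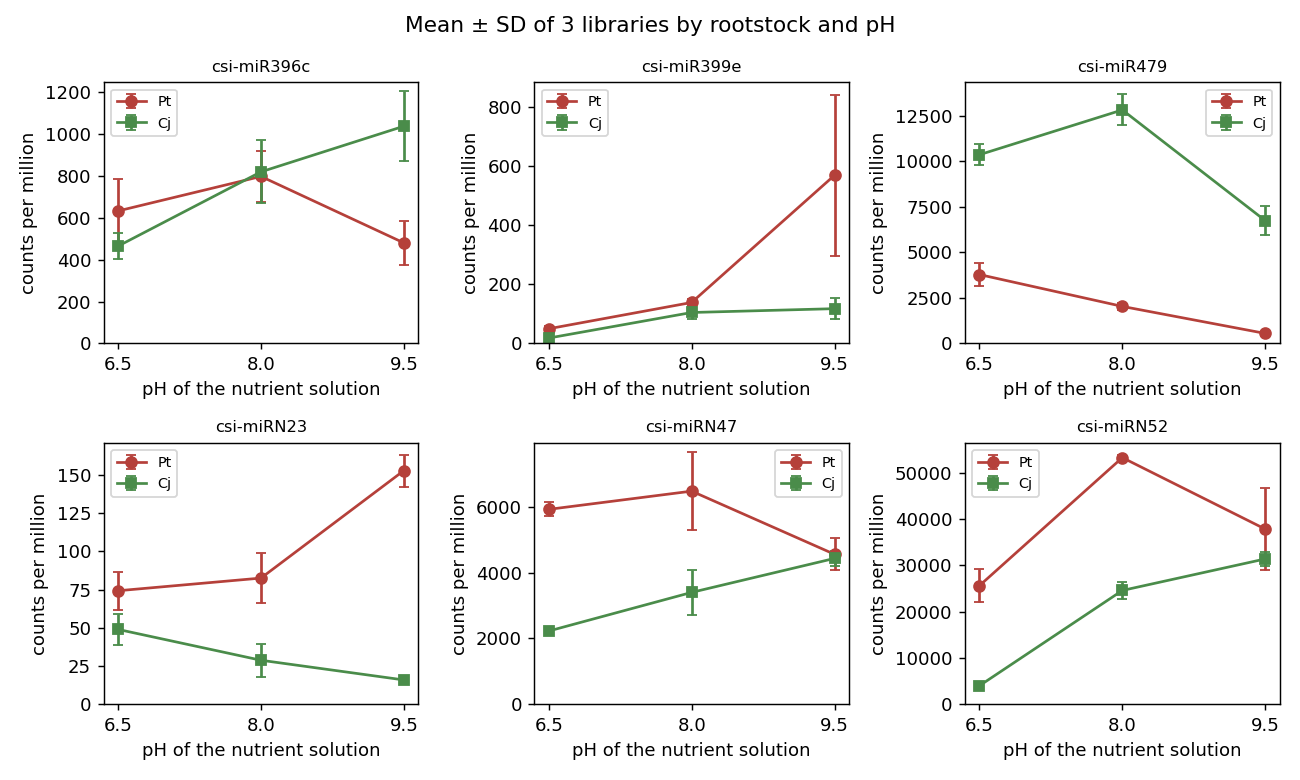
Mean level (± SD, n = 3, in CPM on linear axes from 0) in Pt (circles) and Cj (squares), over pH from 6.5 through 8.0 to 9.5, of the 6 miRNAs whose step from pH 8.0 to 9.5 differed between rootstocks. csi-miR399e averages 570.2 CPM in Pt at pH 9.5 and 118 CPM in Cj at that pH, while csi-miR479 is higher in Cj at each pH.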

How the data were processed

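Small RNA libraries of Pt and Cj roots were prepared with a NEBNext kit. Per the study's methods, the authors cleaned the reads, removed structural RNA and repeats with Bowtie, matched the rest to the Citrus sinensis genome and to miRBase, and predicted further miRNAs with miRDeep2. The counts deposited by the authors are raw reads per mature miRNA. Per the study, the deposited TPM are these counts scaled by a total of mapped reads, without a length term. Only the totals behind them, derived from counts and TPM, were used. The score deposited by the authors for predicted miRNAs was not used in any test. The authors tested with DESeq 1.10.1. Here edgeR was used in its place.

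Repeated lines of csi-miRN52 (3) were dropped. A predicted miRNA whose line was empty was left out. The fit used edgeR 4.0.16 (R 4.3.3), with TMM factors, filterByExpr (minimum count 10, minimum total 15) and a quasi-likelihood fit with 6 group means over all 18 libraries, and Benjamini-Hochberg adjusted p over the 96 tested. CPM, counts per 1000000 listed reads, are TMM-scaled. The SE was derived from the fold change and its F statistic. DESeq2 1.42.0 and limma 3.58.1 were alternatives. The fit was tested on simulated data with planted changes. It recovered most of them with the right sign, but wrong calls were more frequent than the threshold of 0.05 states. Listed reads per library ranged from 77255 to 771522. Exact 95% intervals cover counting error only, since reads carry no molecular tags. Ratios between miRNAs are of reads, not of molecules.

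All called miRNAs are named, the 12 with the largest changes and the members of the lists in detail. The members, the lists and the settings were chosen with earlier results of these data known. The read ratios, the set of 8 miRNAs frequent in Cj (mean of at least 50 CPM in Cj and at most 5% of it in Pt) and csi-miRN22, csi-miRN28, csi-miR394 and csi-miR482c were picked after their values were seen. The lists follow assigned families and include opposite strands.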

Additional observations from a re-analysis of the deposited data

Results flagged for a closer look

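In 6 miRNAs the change between pH 9.5 and pH 8.0 differed between Pt and Cj by a test of the difference itself (edgeR interaction contrast). The log2 differences, Pt minus Cj, were 1.88 for csi-miR399e, 1.67 for csi-miRN23, -1.09 for csi-miR396c, -0.95 for csi-miR479, -0.89 for csi-miRN47 and -0.85 for csi-miRN52. Over the 12 omissions of a library, csi-miR399e ranged from 1.51 to 2.18 and csi-miR479 from -0.98 to -0.78. csi-miR399e kept its call in 8 of the 12, csi-miR479 and csi-miRN47 in 2 each, csi-miRN23 and csi-miRN52 in 1 each and csi-miR396c in 0. The adjusted p of csi-miR479 reached 0.158 by edgeR.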

How the results depend on the processing

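The 17 called miRNAs were fitted again under 18 settings and library omissions each, 306 fits in all. They kept direction in every fit and their call in 249. The count of calls ranged from 13 (no low-count filter, and the 6 Pt libraries alone) to 23 (TPM totals, and reads listed under 2 names entered once) over the settings, and from 8 (without pH 9.5 replicate 1) to 14 over the omissions. DESeq2 called 15 and limma-voom 18. Apart from the omissions, csi-miRN23 and csi-miRN47 lost their call under 6 settings each, csi-miR156 and csi-miRN52 under 3 each, csi-miR396c under 2 and csi-miR827 under 1. The scaling, with identical sequences entered once, moved the median log2 fold change of all tested miRNAs between -0.12 and 0.04.

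The count of differences between rootstocks was 2 with DESeq2 size factors, 3 with library sizes without the 5 most abundant miRNAs, 2 with TMM factors from known miRNAs, 4 with TPM totals or DESeq2, 5 with no low-count filter, 6 with limma-voom, 8 with the 12 libraries at pH 9.5 and 8.0 only, and 0 to 3 over the omissions. Families called numbered 8 to 12 over the settings and 6 to 11 over the omissions. The share of predicted 24-nt miRNAs turned from -0.0628 percentage points to 0.805 with TPM totals as the denominator and ranged from -0.751 to 0.675 over the omissions. Near 0, csi-miR166d ranged from -0.33 to 0.07 and csi-miRN45 from -0.01 to 0.20 over the omissions.

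With the replicate number as a block within each rootstock (replicate block), 16 miRNAs, 5 differences between rootstocks and 8 families were called, and csi-miRN23 was the lost miRNA. Same-numbered Pt libraries deviated from their group means with correlations of -0.133, -0.067 and -0.235. For Pt libraries of different numbers the correlations lay between -0.037 and 0.151. With 3 libraries per group these values cannot show whether same-numbered libraries shared more than the number.

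In the shallow library of 77255 reads, 3 reads stood for 38.8 CPM, so low levels in it rest on few reads, and leaving it out leaves 2 libraries at pH 8.0. csi-miR827 and csi-miR171b had few reads in the 6 libraries. In simulated data wrong calls exceeded the share that the threshold allows, and csi-miR156 and csi-miRN23 lie closest to the threshold.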

Other observations

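The MIR166 family, which targets HD-ZIP III transcripts, has 5 listed members that share 1 seed and differ only at the 3′ end, and csi-miR166e-5p from the opposite arm.
csi-miR166c: uCGGACCAggcuucauuccc
csi-miR166d: uCGGACCAggcuucauucccu
csi-miR166a: uCGGACCAggcuucauuccccc
csi-miR166b: uCGGACCAggcuucauucccgu
csi-miR166e-3p: uCGGACCAggcuucauucccc
Per 100 reads of csi-miR166c, csi-miR166d numbered 69.5, 57.4 and 64.6 at pH 9.5, against 79.1, 84.1 and 100.2 at pH 8.0. For csi-miR166b the numbers were 43.7, 34.3 and 34.8 at pH 9.5, against 55.2, 51.1 and 53.3 at pH 8.0, and for csi-miR166a 76.5, 67.1 and 66.9 at pH 9.5, against 68.8, 69.7 and 67.7 at pH 8.0. csi-miR166d and csi-miR166b thus had lower ratios in every pH 9.5 library, and csi-miR166a overlapped. csi-miR166a and csi-miR166e-3p, of 22 and 21 nt, had equal reads in 17 of 18 libraries and differed by 1 read in all. The sources used here do not say how reads ending at different bases were assigned. These ratios were chosen after their values were seen, as part of 22 read ratios, of which 2 were higher in all pH 9.5 libraries, 9 lower in all and 11 overlapped. With 3 libraries against 3, an exact permutation test cannot go below 0.1 for any of them.

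csi-miR3953 had 4, 3 and 0 reads at pH 9.5 and 0, 1 and 0 at pH 8.0, a ratio per library size of 6.33 with an exact 95% interval from 0.814 to 285 for counting error. csi-miR530b had 3, 6 and 7 reads at pH 9.5 and 0, 3 and 6 at pH 8.0. Neither was tested.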
